A study of Mus musculus with 9 samples.

Results

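The genes that set the pace of the G1 phase of the cell cycle were followed in mouse bone marrow-derived macrophages (BMDMs), primary macrophages grown from bone marrow cells. They are 10 in number, the D-type cyclin genes Ccnd1, Ccnd2 and Ccnd3, the kinase genes Cdk4 and Cdk6, the inhibitor genes Cdkn1a, Cdkn1b and Cdkn2c, and Rb1 and Myc. They were chosen as named regulators of G1 and found by their mouse symbols, and all 10 were among the 22524 genes counted and passed the filter on low counts. RNA sequencing gave 9 libraries in 3 groups of 3. The groups were SRF-KO BMDMs given lipopolysaccharide (LPS) for 6 h (LPS SRF-KO), control BMDMs given LPS for 6 h (LPS control) and control BMDMs left untreated (untreated control). LPS, a component of the envelope of Gram-negative bacteria, is sensed by a Toll-like receptor on macrophages. SRF (serum response factor) controls cytoskeletal and immediate-early genes. All cells were of strain C57BL/6 and were cultured for 7 days, and the controls are labelled wild type. The sources used here do not give the allele or any Cre line behind SRF-KO, the age of the mice, the LPS dose or whether replicates came from separate animals. The p-values therefore reflect spread between libraries, which may be technical. With no untreated SRF-KO libraries in the data, what LPS itself does in SRF-KO cells is not addressed.

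A cell commits to division when D-type cyclins, bound to CDK4 or CDK6, phosphorylate the retinoblastoma protein RB1 and release E2F transcription factors, which then switch on the genes of DNA replication. The inhibitor p18 (Cdkn2c) blocks CDK4 and CDK6 directly, while p21 (Cdkn1a) and p27 (Cdkn1b) restrain CDK2 complexes and are also bound by cyclin D complexes. MYC, a transcription factor that pairs with MAX, drives growth and raises several of these regulators. Macrophages in culture divide under the growth factor CSF-1, and LPS is known to stop that division.

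Srf itself had 34, 24 and 12 counts in the LPS SRF-KO libraries, against 738, 799 and 900 in LPS control and 810, 975 and 884 in untreated control, so the targeted gene was nearly absent where the labels say so. Total counts lay between 16987011 and 24912173 in LPS SRF-KO, between 15321839 and 19009123 in LPS control and between 15867737 and 17606538 in untreated control. Levels are given as CPM, a gene's count relative to its library's size after TMM scaling, which sets the bulk of genes level between libraries. When library totals were used as the scale, the median log2 fold change over all genes was 0.37 in LPS SRF-KO against LPS control, -0.57 in LPS control against untreated control and -0.20 in LPS SRF-KO against untreated control, where TMM gave 0.01, -0.02 and -0.01. The 10 macrophage markers, among them Adgre1 and Csf1r, summed to between 24670 and 24920 CPM in LPS SRF-KO, between 24060 and 24550 CPM in LPS control and between 17200 and 17810 CPM in untreated control. That sum hides changes in both directions, since 7 of the 10 were lower and 3 higher in LPS SRF-KO than in LPS control (median log2 fold change -0.88). Of all tested genes 37.9% were lower and 39.1% higher there. Adgre1 was lower (log2 fold change -1.12) and Csf1r higher (0.36), and Lyz2, the most abundant, averaged 12300 CPM in LPS SRF-KO and 8925 CPM in LPS control. The 7 progenitor markers summed to between 12.5 and 12.7 CPM in LPS SRF-KO, between 3.49 and 4.59 CPM in LPS control and between 4.87 and 5.45 CPM in untreated control. The 9 neutrophil and granulocyte markers summed to between 18.8 and 20.5 CPM in LPS SRF-KO, between 6.40 and 7.40 CPM in LPS control and between 2.35 and 2.65 CPM in untreated control, with Ly6g, Elane and Mpo at 0 counts in both LPS groups. The 6 dendritic cell markers summed to between 11.45 and 12.4 CPM in LPS SRF-KO, between 3.11 and 4.43 CPM in LPS control and between 0.801 and 0.910 CPM in untreated control. Only 3 of the 7 progenitor, 3 of the 9 neutrophil and granulocyte and 1 of the 6 dendritic cell markers passed the filter on low counts. These sums therefore rest on few genes at low levels. The 6 stromal and endothelial markers, of which 2 passed that filter, summed to between 1.71 and 2.15 CPM in LPS SRF-KO. Their sum was between 7.05 and 8.94 CPM in LPS control and between 1.76 and 2.075 CPM in untreated control. B cell, T and NK cell and erythroid markers each summed to at most 2.17 CPM in any library. The 4 Y-linked genes Uty, Ddx3y, Kdm5d and Eif2s3y summed to between 0.0387 and 0.135 CPM in LPS SRF-KO, between 137 and 146 CPM in LPS control and between 115 and 133 CPM in untreated control. Sex therefore cannot be told apart from genotype in any comparison with SRF-KO, and the part of the rarer cell types in these results was not tested.

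With LPS all 10 genes changed in control cells, where 81.7% of the 11560 tested genes did. Of them 4 rose and 6 fell, against 40.8% of genes in each direction (4722 rising and 4721 falling, but 2428 and 7835 with library totals). The median log2 fold change was -0.69 over the 10 genes and -0.02 over all genes tested. Of the 10, 8 changed at least 2-fold, as did 33.0% of all genes, and the CPM of the 2 groups did not overlap for any of the 10, as for 82.1% of all genes. Between LPS SRF-KO and LPS control 8 of the 10 changed, where 77.0% of all genes did. Here 3 rose and 5 fell, against 39.1% and 37.9% of all genes (7059 higher and 2434 lower genes with library totals, 4521 and 4384 with TMM). With library totals all 10 were called, 5 higher and 5 lower, and their median log2 fold change was 0.03, against -0.33 with TMM. Of the 10, 4 changed at least 2-fold, as did 25.1% of genes, and the groups did not overlap for 9 of the 10, as for 78.0% of genes. Between LPS SRF-KO and untreated control, which share no library but differ in both genotype and treatment, all 10 changed, where 79.5% of genes did, with 3 higher (39.4% of genes) and 7 lower (40.1% of genes). With library totals 3448 genes were higher and 6042 lower in that comparison, against 4554 and 4638 with TMM. The count of members called is thus near the background in each comparison, and the sizes and the order of the groups carry the description below. The comparisons share libraries, so their values are set side by side.

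**Figure D1:**
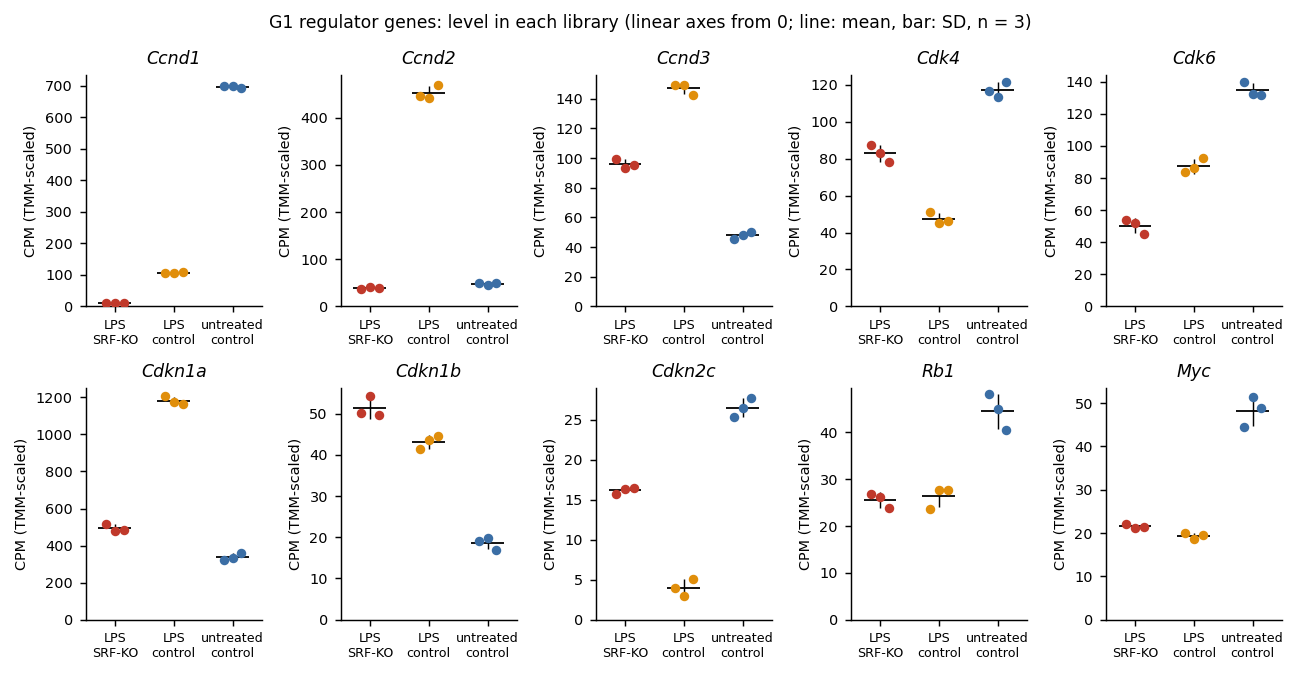
Level of each of the 10 genes in CPM (TMM-scaled, linear axes from 0) in LPS SRF-KO, LPS control and untreated control; points are libraries, horizontal lines means and vertical bars SD (n = 3 each). Ccnd2 is high in the 3 LPS control libraries alone, at 442 to 470.0 CPM, while Ccnd1 is highest in untreated control, at 693 to 700.2 CPM, and lowest in LPS SRF-KO.

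The 3 D-type cyclins each followed a course of their own. Ccnd1, which encodes cyclin D1 (ENSMUSG00000070348, chromosome 7, 144929931 to 144939925, minus strand, GRCm38), stood at 11.1, 10.1 and 11.45 CPM in LPS SRF-KO, at 105.2, 105.3 and 108.4 CPM in LPS control and at 700.2, 697.6 and 693.1 CPM in untreated control. The 3 groups formed separate steps, with every untreated library highest and every SRF-KO library lowest. LPS lowered Ccnd1 6.55-fold in control cells (log2 fold change -2.71, SE 0.0402, edgeR adjusted p = 8.56e-38), and it was a further 9.82-fold lower in LPS SRF-KO than in LPS control (log2 fold change -3.30, SE 0.0565, edgeR adjusted p = 2.09e-35). Against untreated control the gap in LPS SRF-KO came to 64.3-fold (log2 fold change -6.01, SE 0.0517, edgeR adjusted p = 2.26e-45), and 0.277% of all tested genes had a lower log2 fold change there. In that group Ccnd1 still had 246, 262 and 202 counts. The gene LTO1 lies on the other strand and shares 1100 exon bases with Ccnd1. It was at 15.8 ± 1.28 CPM in LPS SRF-KO, 29.05 ± 2.00 CPM in LPS control and 21.4 ± 0.364 CPM in untreated control (SD, n = 3), and with the strand setting of the counting not known, reads of the shared stretch could have been counted for either gene.

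Ccnd2, the gene of cyclin D2 (ENSMUSG00000000184, chromosome 6, 127125162 to 127152193, minus strand), was at 37.9, 40.1 and 39.4 CPM in LPS SRF-KO, at 446.6, 441.7 and 470.0 CPM in LPS control and at 48.9, 45.9 and 49.3 CPM in untreated control. LPS control thus stood apart from both other groups, which lay close together without overlapping. LPS raised Ccnd2 9.43-fold in control cells (log2 fold change 3.24, SE 0.0441, edgeR adjusted p = 5.13e-39), and 3.57% of all tested genes rose by more. In LPS SRF-KO it was 11.6-fold lower than in LPS control (log2 fold change -3.53, SE 0.0449, edgeR adjusted p = 1.67e-39), a fall exceeded by 1.13% of tested genes. The level in LPS SRF-KO was a little below that of untreated control (log2 fold change -0.30, SE 0.0504, edgeR adjusted p = 1.95e-06, or -0.49 with library totals).

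Cyclin D3 is encoded by Ccnd3 (ENSMUSG00000034165, chromosome 17, 47505051 to 47599691, plus strand). Its level was 99.6, 93.4 and 95.6 CPM in LPS SRF-KO, 149.4, 149.2 and 142.6 CPM in LPS control and 45.5, 48.4 and 50.1 CPM in untreated control. LPS SRF-KO lay between the 2 control groups, with no overlap on either side. LPS raised Ccnd3 3.07-fold in control cells (log2 fold change 1.62, SE 0.0475, edgeR adjusted p = 5.51e-28, or 1.07 with library totals). In LPS SRF-KO it was 1.53-fold lower than in LPS control (log2 fold change -0.61, SE 0.0440, edgeR adjusted p = 1.96e-15, but only -0.26 with library totals) and 2.01-fold higher than in untreated control (log2 fold change 1.00, SE 0.0474). Bysl, a ribosome assembly gene on the other strand that shares 361 exon bases with Ccnd3, had log2 fold changes of -0.87 in LPS control against untreated control and 0.61 in LPS SRF-KO against LPS control, the opposite signs to Ccnd3.

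Set per length, as CPM per kb of exon, the cyclin D pool shrank and changed its main member. The 3 genes summed to 17.4 ± 0.345 CPM per kb in LPS SRF-KO, 87.5 ± 1.55 CPM per kb in LPS control and 158.6 ± 0.466 CPM per kb in untreated control (SD, n = 3 each). Ccnd3 was the main form in LPS SRF-KO, with 62.9 ± 0.979% of the sum, beside 23.9 ± 1.12% for Ccnd2 and 13.3 ± 0.634% for Ccnd1. In LPS control Ccnd2 led with 55.01 ± 0.858%, beside 25.8 ± 0.0868% for Ccnd1 and 19.2 ± 0.835% for Ccnd3. Untreated control was almost wholly Ccnd1, at 93.3 ± 0.222%, with 3.22 ± 0.127% for Ccnd2 and 3.45 ± 0.176% for Ccnd3. Each group therefore had a different leading D cyclin in all of its 3 libraries. The shares rest on exon lengths of 4709 bases for Ccnd1, 9409 for Ccnd2 and 8775 for Ccnd3 that join all annotated transcripts, and transcripts with shorter ends would shift them. As a composition of the chosen genes, they were not tested.

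**Figure D2:**
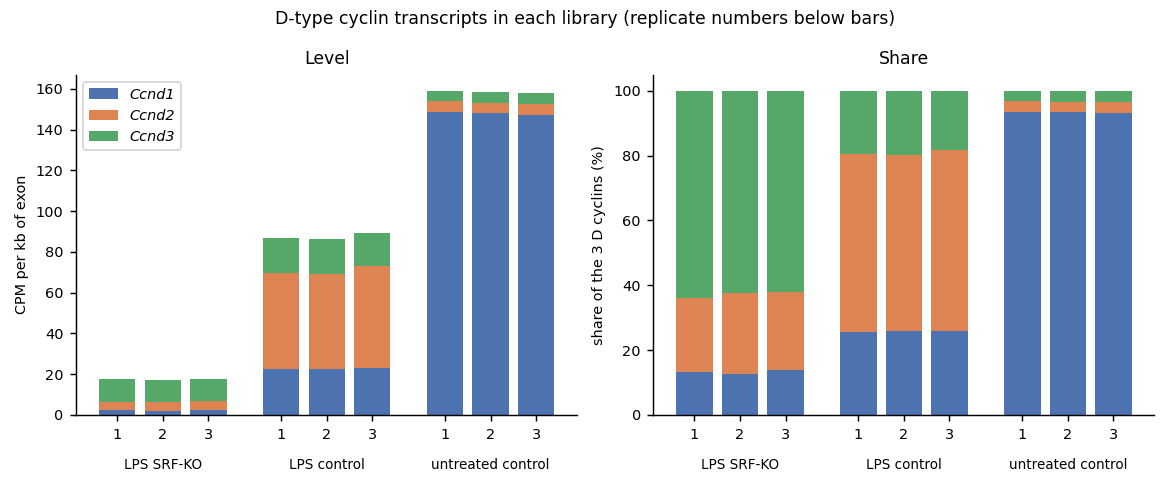
D-type cyclin transcripts in each library, as CPM per kb of exon (left) and as percent of the 3 genes' sum (right), for LPS SRF-KO, LPS control and untreated control; each bar is a library. The leading colour differs between the groups, with Ccnd3 at 62.2% to 64.0% in LPS SRF-KO, Ccnd2 at 54.4% to 56.0% in LPS control and Ccnd1 at 93.1% to 93.5% in untreated control.

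The partner kinases moved together with LPS and apart in SRF-KO. Cdk4 (ENSMUSG00000006728, chromosome 10, 127063534 to 127067920, plus strand) was at 87.3, 83.2 and 78.35 CPM in LPS SRF-KO, 50.9, 45.4 and 46.3 CPM in LPS control and 116.8, 113.5 and 121.7 CPM in untreated control. Every LPS SRF-KO library lay between the control groups. Cdk4 fell 2.47-fold with LPS in control cells (log2 fold change -1.31, SE 0.0525, edgeR adjusted p = 1.76e-23) and was 1.75-fold higher in LPS SRF-KO than in LPS control (log2 fold change 0.81, SE 0.0535, edgeR adjusted p = 1.75e-16), still below untreated control (log2 fold change -0.50, SE 0.0467). Cdk6 (ENSMUSG00000040274, chromosome 5, 3341485 to 3531008, plus strand) was at 53.9, 51.9 and 45.2 CPM in LPS SRF-KO, 83.5, 86.0 and 92.5 CPM in LPS control and 139.8, 132.5 and 131.5 CPM in untreated control. Here LPS SRF-KO was the lowest of the 3 groups. Cdk6 fell 1.54-fold with LPS in control cells (log2 fold change -0.62, SE 0.0507, edgeR adjusted p = 5.62e-14, or -1.17 with library totals) and was another 1.73-fold lower in LPS SRF-KO than in LPS control (log2 fold change -0.79, SE 0.0548, edgeR adjusted p = 6.62e-16, or -0.435 with library totals). Per length, Cdk4 made up 87.7 ± 0.460% of the transcripts of both kinases in LPS SRF-KO, 70.1 ± 2.12% in LPS control and 79.0 ± 0.878% in untreated control (SD, n = 3). Tspan31, on the other strand with 641 exon bases shared with Cdk4, had log2 fold changes of 0.62 with LPS in control cells and -0.36 in LPS SRF-KO against LPS control, each opposite in sign to Cdk4.

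The promoter windows of Cdk4 and Cdk6 are shown, from 250 bases before to 50 bases after the RefSeq start (build GRCm38.p6). They are written 5′ to 3′ along the plus strand, which is that of both genes. Capitals mark CACGTG, the E-box that MYC and MAX are known to bind. In the Cdk6 window they also mark a TATA box form, TATAAA. The Cdk4 window is chr10:127063285-127063584 and the Cdk6 window is chr5:3343643-3343942. The Cdk4 window spans the annotated gene start at 127063534. The Cdk6 window lies wholly inside the gene, downstream of its annotated start at 3341485, so the windows are not placed alike.
Cdk4: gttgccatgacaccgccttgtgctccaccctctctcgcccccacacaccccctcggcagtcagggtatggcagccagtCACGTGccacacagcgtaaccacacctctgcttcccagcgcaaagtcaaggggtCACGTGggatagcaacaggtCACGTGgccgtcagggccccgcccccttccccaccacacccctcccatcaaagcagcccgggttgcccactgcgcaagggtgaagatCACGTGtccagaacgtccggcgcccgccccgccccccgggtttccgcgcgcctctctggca
Cdk6: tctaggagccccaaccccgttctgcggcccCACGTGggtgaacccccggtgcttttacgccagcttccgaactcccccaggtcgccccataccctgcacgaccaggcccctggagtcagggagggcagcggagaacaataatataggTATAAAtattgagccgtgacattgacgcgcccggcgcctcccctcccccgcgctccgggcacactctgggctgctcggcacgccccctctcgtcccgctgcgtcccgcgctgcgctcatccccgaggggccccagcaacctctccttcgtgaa
The Cdk4 window held CACGTG at 4 places, starting at positions -172, -118, -98 and -11 from the start, whereas the Cdk6 window held it once, at -220, with the TATA box form at -103. Of 32851 RefSeq windows of this length, 7.15% held CACGTG at least once and 8 windows, or 0.0244%, held it 4 times or more, and 13.6% held the TATA box form. Both strands were searched for every motif, and the E-box reads the same on both. Windows were given for 6 of the 10 genes, with 9 windows in all, and none for Ccnd1, Ccnd2, Rb1 and Myc. Apart from Cdk4 and Cdk6, the E-box was found in 1 of the 2 Cdkn2c windows. None of the 9 windows held the E2F site form TTTCCCGC, which 1.07% of all windows hold, or the other E2F form searched, TTTGGCGC, which 0.514% hold. None held the STAT site form TTCNNNGAA (8.3% of all windows) or the CArG box bound by SRF (1.63%). The GC box form GGGCGG, in 35.7% of all windows, was also searched and is not in capitals. A match is a stretch of letters and says nothing of binding in these cells. Any link of these motifs to the levels of Cdk4 and Cdk6 was not tested.

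Of the inhibitors, p21 and p27 rose with LPS and p18 fell. Cdkn1a, the gene of p21 (ENSMUSG00000023067, chromosome 17, 29090976 to 29100727, plus strand), was at 518.6, 477.1 and 481.8 CPM in LPS SRF-KO, 1207, 1173 and 1163 CPM in LPS control and 320.6, 334.6 and 358.7 CPM in untreated control. LPS SRF-KO lay between the control groups and nearer to untreated control. LPS raised Cdkn1a 3.49-fold in control cells (log2 fold change 1.81, SE 0.0423, edgeR adjusted p = 3.26e-31), and 8.39% of tested genes rose by more. It was 2.40-fold lower in LPS SRF-KO than in LPS control (log2 fold change -1.26, SE 0.0414, edgeR adjusted p = 3.22e-26) and 1.46-fold higher than in untreated control (log2 fold change 0.54, SE 0.0418, or 0.35 with library totals). Per length it was the most abundant of the 3 inhibitors in every group, at 138.6 ± 6.40 CPM per kb in LPS SRF-KO, 332 ± 6.41 CPM per kb in LPS control and 95.1 ± 5.42 CPM per kb in untreated control (SD, n = 3).

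Cdkn1b, the gene of p27 (ENSMUSG00000003031, chromosome 6, 134920401 to 134925513, plus strand), was the only one of the 10 that was highest in LPS SRF-KO. It was at 50.1, 54.4 and 49.6 CPM in LPS SRF-KO, 41.3, 43.6 and 44.7 CPM in LPS control and 19.15, 19.77 and 16.92 CPM in untreated control. The SRF-KO libraries lay just above LPS control, and both LPS groups were far above untreated control. LPS raised Cdkn1b 2.32-fold in control cells (log2 fold change 1.21, SE 0.0677, edgeR adjusted p = 6.41e-19, or 0.66 with library totals). The further difference in LPS SRF-KO was small, at 1.19-fold (log2 fold change 0.25, SE 0.0587, edgeR adjusted p = 0.000229, or 0.61 with library totals), and against untreated control LPS SRF-KO was 2.76-fold higher (log2 fold change 1.46, SE 0.0630).

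Cdkn2c, the gene of p18 (ENSMUSG00000028551, chromosome 4, 109660876 to 109667189, minus strand), was at 15.7, 16.3 and 16.4 CPM in LPS SRF-KO, 3.95, 2.90 and 5.04 CPM in LPS control and 25.4, 26.4 and 27.8 CPM in untreated control. LPS control was thus the low group, resting on 49, 42 and 78 counts. With LPS it fell 6.63-fold in control cells (log2 fold change -2.73, SE 0.112, edgeR adjusted p = 3.24e-23), and 3.39% of tested genes fell by more. It was 4.05-fold higher in LPS SRF-KO than in LPS control (log2 fold change 2.02, SE 0.120, edgeR adjusted p = 6.53e-18), yet 1.64-fold lower than in untreated control (log2 fold change -0.71, SE 0.0776). Summed per length, the 3 inhibitors came to 155.9 ± 5.99 CPM per kb in LPS SRF-KO, 343 ± 5.95 CPM per kb in LPS control and 109.1 ± 5.59 CPM per kb in untreated control. In LPS SRF-KO this sum was above that of the D cyclins, 17.4 CPM per kb, and in LPS control it was also above it, at 343 against 87.5 CPM per kb. In untreated control it was below it, at 109.1 against 158.6 CPM per kb. Cdkn1a made up 88.9%, 96.8% and 87.2% of the inhibitor sum in LPS SRF-KO, LPS control and untreated control. Cdkn2d, described below, was not part of it. The sums are of RNA, rest on exon lengths that join all annotated transcripts, and say nothing of protein.

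Rb1 and Myc fell with LPS and showed no called difference between the LPS groups. Rb1 (ENSMUSG00000022105, chromosome 14, 73183673 to 73325822, minus strand), whose product holds E2F factors in check, was at 26.9, 26.1 and 23.8 CPM in LPS SRF-KO, 23.7, 27.65 and 27.67 CPM in LPS control and 48.1, 44.9 and 40.6 CPM in untreated control. The LPS groups overlapped, and both lay below untreated control. Rb1 fell 1.69-fold with LPS in control cells (log2 fold change -0.75, SE 0.0703, edgeR adjusted p = 2.32e-12, or -1.30 with library totals). In LPS SRF-KO against LPS control its log2 fold change was -0.04 (95% interval -0.19 to 0.11, edgeR adjusted p = 0.606), and with library totals it was 0.31 (edgeR adjusted p = 0.000281; range over the alternatives 0.000281 to 0.972). Rcbtb2 and Lpar6 lie on the other strand and share 488 and 408 exon bases with Rb1. They had log2 fold changes of -2.20 and -1.84 with LPS in control cells, in the same direction as Rb1, and the part of their reads in the Rb1 counts was not tested.

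Myc (ENSMUSG00000022346, chromosome 15, 61985391 to 61990374, plus strand) was at 22.2, 21.1 and 21.5 CPM in LPS SRF-KO, 19.98, 18.73 and 19.46 CPM in LPS control and 44.4, 51.5 and 48.95 CPM in untreated control. The SRF-KO libraries lay just above LPS control without overlapping it, and all 6 LPS libraries lay at less than the level of any untreated one. Myc fell 2.49-fold with LPS in control cells (log2 fold change -1.32, SE 0.0681, edgeR adjusted p = 6.01e-20) and was 2.24-fold lower in LPS SRF-KO than in untreated control (log2 fold change -1.16, SE 0.0618, edgeR adjusted p = 1.74e-19). Between the LPS groups its log2 fold change of 0.15 (95% interval 0.0022 to 0.31) did not pass over all genes (edgeR adjusted p = 0.0601). It passed when replicate 1 of untreated control was left out (log2 fold change 0.16, edgeR adjusted p = 0.0474) and with library totals (0.51, edgeR adjusted p = 9.42e-08), and the adjusted p ranged from 9.42e-08 to 0.171 over the alternatives.

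**Figure D3:**
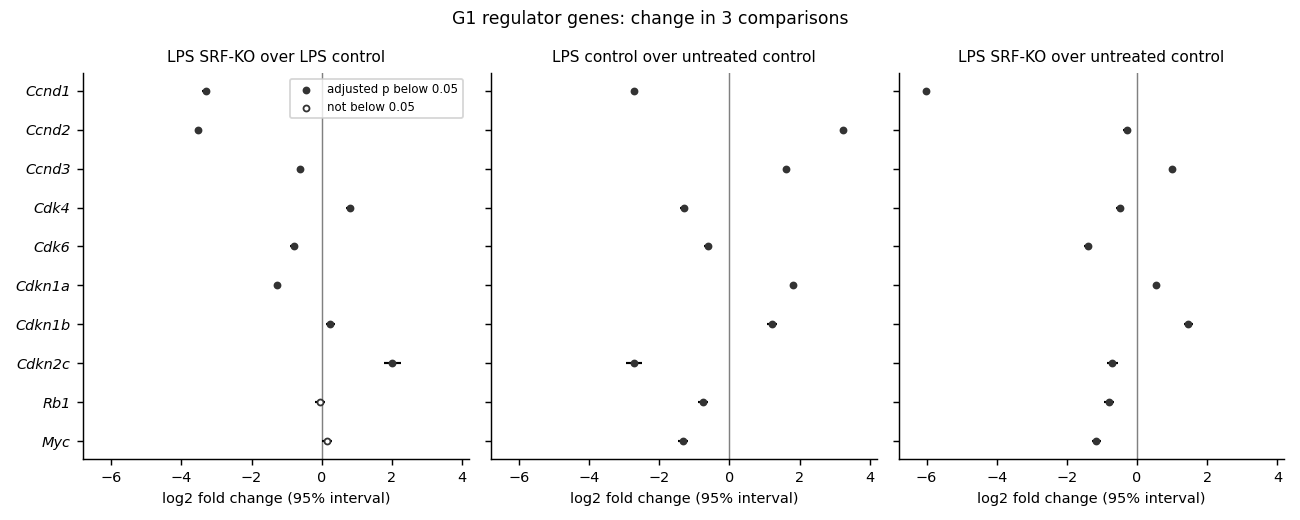
Log2 fold changes of the 10 genes with 95% intervals in LPS SRF-KO over LPS control, LPS control over untreated control and LPS SRF-KO over untreated control; filled points passed an adjusted p below 0.05. Rb1 (-0.04) and Myc (0.15) are the only open points, both between the LPS groups, while Ccnd1 reaches -6.01 in LPS SRF-KO over untreated control.

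Across the 9 libraries, some of the 10 genes had profiles more alike than others. As a measure of likeness, the root mean square difference between log2 CPM values centred on each gene's own mean was 0.264 for Rb1 and Myc, 0.274 for Ccnd3 and Cdkn1a and 0.316 for Cdk4 and Myc, the 3 smallest of the 45 pairs. At the other end stood Ccnd1 and Cdkn1b, at 3.04. Even the closest pairs were not parallel, since Rb1 and Myc had log2 fold changes of -0.75 and -1.32 with LPS in control cells. In LPS SRF-KO against LPS control Cdk4 and Myc had 0.81 and 0.15. Among 8309 other genes, the closest to Ccnd2 were Tlr3 (0.116), Tgtp2 (0.122) and Apol9b (0.128). Tlr3 was at 25.9 ± 2.98 CPM in LPS SRF-KO, 268 ± 12.6 CPM in LPS control and 31.3 ± 0.606 CPM in untreated control (SD, n = 3). Cdkn1a was closest to Cmtr1 (0.0695), Parp14 (0.0736) and Kif3c (0.0781), with Parp14 at 770 ± 24.8, 1748 ± 33.0 and 529 ± 19.8 CPM in LPS SRF-KO, LPS control and untreated control. Ccnd1 had fewer near neighbours, the closest being Pcp4l1 (0.148), Gas6 (0.333) and Nlrp1b (0.614). Gas6 was at 3.59 ± 0.0817 CPM in LPS SRF-KO, 57.15 ± 1.29 CPM in LPS control and 230.3 ± 10.8 CPM in untreated control. For Myc the closest were Cyb5r1 (0.0611), Tubgcp2 (0.0616) and Coro1c (0.0620).

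The steps that follow cyclin D were read from lists of other genes of the pathway. As background to the counts of this and the next lists, 39.1% of all tested genes were higher and 37.9% lower in LPS SRF-KO than in LPS control. With LPS in control cells 40.8% rose and 40.8% fell. Of 9 genes of cyclin E, CDK2 and CDK activation, 8 were higher and 1 lower in LPS SRF-KO than in LPS control (median log2 fold change 0.41), and 2 rose and 6 fell with LPS in control cells (median -0.85). With library totals these counts were 9 and 0, and 0 and 8. Ccne2, a cyclin E gene, was at 9.15 ± 0.0270 CPM in LPS SRF-KO, 1.89 ± 0.336 CPM in LPS control and 19.8 ± 1.19 CPM in untreated control. Cks1b, a CDK subunit that helps to mark p27 for destruction, was at 38.8 ± 1.249 CPM in LPS SRF-KO, 5.67 ± 0.378 CPM in LPS control and 15.2 ± 1.65 CPM in untreated control, and Cdk2 had log2 fold changes of 0.91 in LPS SRF-KO against LPS control and -1.59 with LPS in control cells. Of 5 other inhibitor genes, 2 were higher and 1 lower in LPS SRF-KO than in LPS control (median 0.37). With LPS in control cells 1 rose and 1 fell (median -0.72). With library totals these counts were 2 and 1, and 1 and 4. Cdkn2d, the gene of p19, rose by 1.51 on the log2 scale with LPS in control cells and was lower in LPS SRF-KO than in LPS control (log2 fold change -0.88). Cdkn3, a phosphatase of CDKs, was higher there (3.34), resting on 11, 16 and 11 counts in LPS control. Cdkn2b, the gene of p15, was higher as well (2.76), with 39, 40 and 39 counts against 4, 4 and 3 in LPS control. Cdkn1c and Cdkn2a did not pass in either comparison with TMM. Cdkn2b, Cdkn1c and Cdkn2a were named after their values were seen.

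Of 12 pocket protein, E2F and DP genes, 8 were higher and 2 lower in LPS SRF-KO than in LPS control (median 0.72), and 3 rose and 8 fell with LPS in control cells (median -1.28). E2f2, an activating E2F, was at 14.8 ± 0.842 CPM in LPS SRF-KO, 2.85 ± 0.343 CPM in LPS control and 36.8 ± 3.73 CPM in untreated control. E2f7 and E2f8, both repressors that are themselves cell cycle genes, had log2 fold changes of 3.16 and 1.82 in LPS SRF-KO against LPS control and of -3.815 and -3.02 with LPS in control cells. With library totals 9 of the 12 were higher and 0 lower in LPS SRF-KO than in LPS control, and 0 rose and 11 fell with LPS. All 16 E2F targets fell with LPS in control cells (median -2.82), and 13 were higher and 2 lower in LPS SRF-KO than in LPS control (median 1.76). Rrm1, a subunit of ribonucleotide reductase, was at 119 ± 4.68 CPM in LPS SRF-KO, 22.6 ± 1.36 CPM in LPS control and 129 ± 4.82 CPM in untreated control. The replication helicase genes Mcm3 and Mcm5 had log2 fold changes of 1.93 and 2.11 in LPS SRF-KO against LPS control, and Uhrf1, a factor of DNA methylation upkeep, fell by 3.83 on the log2 scale with LPS in control cells. Mcm6 (-0.78) and Pcna (-0.15) were the lower ones in LPS SRF-KO and Cdt1 (-0.11) did not pass, all 3 named after their values were seen. With library totals Pcna (0.21) and Cdt1 (0.24) were higher there, and 15 of the 16 were higher and 1 lower.

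All 12 genes of cells in S to M phase were higher in LPS SRF-KO than in LPS control (median 3.62), all 12 fell with LPS in control cells (median -2.78), and all 12 were higher in LPS SRF-KO than in untreated control (median 0.88). In the last comparison 15 of the 16 E2F targets were lower and 1 higher (median -1.42), so the 2 lists lay on opposite sides of untreated control, with TMM and with library totals alike. Of all tested genes 39.4% were higher and 40.1% lower in that comparison. Mki67, the proliferation marker Ki-67, was at 507 ± 22.8 CPM in LPS SRF-KO, 44.3 ± 3.84 CPM in LPS control and 209.9 ± 13.45 CPM in untreated control. Top2a had log2 fold changes of 3.69 in LPS SRF-KO against LPS control and -2.82 with LPS in control cells. These libraries are bulk RNA, so fewer cells of a kind and less RNA per cell cannot be told apart.

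Partners and targets of MYC were read in the same way. Mxd1, a rival of MYC for MAX, was at 42.9 ± 1.93 CPM in LPS SRF-KO, 236 ± 3.37 CPM in LPS control and 12.7 ± 0.149 CPM in untreated control, and it had the smallest p of its list in both comparisons. Max was at 78.7 ± 1.59 CPM in LPS SRF-KO, 184 ± 5.76 CPM in LPS control and 65.6 ± 1.56 CPM in untreated control. Of 11 tested partners, 5 were higher and 3 lower in LPS SRF-KO than in LPS control (median 0.12), and 6 rose and 4 fell with LPS in control cells (median 0.65), or 8 and 3, and 5 and 5, with library totals. The shares over all tested genes with TMM were 39.1% higher and 37.9% lower, and 40.8% risen and 40.8% fallen. Mycl, a relative of Myc that was named after its values were seen, rose by 4.24 on the log2 scale with LPS in control cells, and Mycn had 0 CPM in every group. Of 17 tested MYC targets, 16 were higher and 1 lower in LPS SRF-KO than in LPS control (median 0.57), and 2 rose and 14 fell with LPS in control cells (median -0.52), or 16 and 0, and 1 and 16, with library totals. Cad, which starts pyrimidine synthesis, was at 47.25 ± 1.535 CPM in LPS SRF-KO, 15.7 ± 0.721 CPM in LPS control and 53.01 ± 0.995 CPM in untreated control. Shmt2, a mitochondrial enzyme of serine use, had log2 fold changes of 1.57 and -1.28 in the same 2 comparisons, and Nop58 and Nolc1, which act in ribosome assembly, fell by 2.10 and 1.72 with LPS in control cells. Against untreated control, 6 of the 17 targets were higher and 7 lower in LPS SRF-KO (median -0.05), but 5 higher and 11 lower with library totals (median -0.24).

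**Figure D4:**
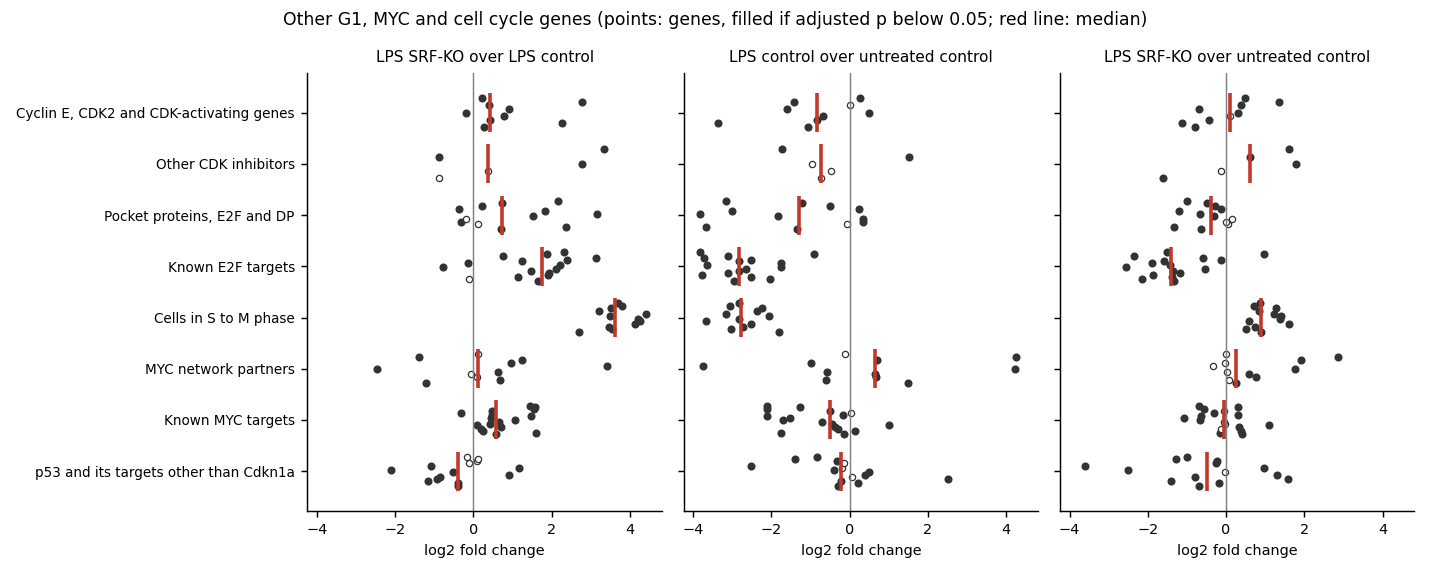
Log2 fold changes of other G1, MYC and cell cycle genes in LPS SRF-KO over LPS control, LPS control over untreated control and LPS SRF-KO over untreated control; points are genes, filled where the adjusted p was below 0.05, and red lines are medians. The list of cells in S to M phase sits right of 0 in both comparisons of LPS SRF-KO, with medians of 3.62 and 0.88, while E2F targets have medians of 1.76 and -1.42.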

How the data were processed

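Stranded TruSeq libraries of 9 mouse BMDM samples were sequenced, per the labels' protocols. STAR 2.5.4b, featureCounts, bcl2fastq 2.19, Trimmomatic, edgeR and the build GRCm38 are named in the submitters' processing notes, which say nothing here of options, annotation release or strand. Each deposited file gives raw read counts by Ensembl gene identifier, per the file headers, and holds 22524 identifiers. Coordinates and exon lengths came from GENCODE mouse release 21 (GRCm38). Symbols came from a separate list of gene names, with symbols for 22214 of 22524 identifiers. The fits used edgeR 4.0.16 (limma 3.58.1, R 4.3.3). Genes kept by filterByExpr (11560) were scaled by TMM (trimmed mean of M-values) and fitted together in 1 quasi-likelihood model of the 3 groups, and p-values were Benjamini-Hochberg adjusted over all of them at 0.05, with no minimum fold. The common biological coefficient of variation was 3.46%. CPM are given as mean ± SD. Library totals, DESeq2 1.42.0 size factors and Wald test, no filter, fits of 2 groups, a replicate block and leaving out each library were alternatives. Replicate pairs differed by more than sampling noise (chi-square per degree of freedom 1.75 to 3.95). The steps were also run on simulated counts in which few genes changed, balanced in direction. That setting does not test the choice of scaling. Genes named from other lists are the 2 with the smallest p in each of LPS control against untreated control and LPS SRF-KO against LPS control, and the alike genes are the 3 closest of mean log2 CPM (prior count 2) of at least 3. The 10 genes and the lists were chosen with earlier results of these data known. Skp1 was on a list and is not analysed here. A gene that the naming rule picks from the upstream regulators is not reported here. Counting floors cover counting error only.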

Additional observations from a re-analysis of the deposited data

How the results depend on the processing

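Of the 15 alternatives, library totals in place of TMM moved the values most, and apart from Rb1 and Myc between the LPS groups no log2 fold change of the 10 genes lost or gained a call or changed sign under any of them. Rb1 there turned to 0.31 with library totals. The other exception, Myc, gained a call with library totals and without untreated control replicate 1. Counts of genes and of members called stayed within 1.5 times under every alternative. With the replicate block 9467, 8919 and 9231 genes were called in LPS control against untreated control, LPS SRF-KO against LPS control and LPS SRF-KO against untreated control, and 10, 8 and 10 of the 10 genes, so the block changed no call of a member. Same-numbered libraries of different groups correlated between -0.0746 and 0.0971 in their deviations from the group means, and differently numbered ones between -0.110 and 0.111. The same-numbered values of LPS control and LPS SRF-KO were 0.0654, 0.0971 and 0.0180. No clear pairing by number was seen, but such weak values from 3 libraries per group cannot decide it, and shared animals or batches were not tested. From raw counts without division by length, the shares of Ccnd1, Ccnd2 and Ccnd3 were 7.45%, 26.8% and 65.8% in LPS SRF-KO, 15.1%, 64.1% and 20.8% in LPS control and 87.9%, 6.06% and 6.05% in untreated control, with the same leading gene in each group. Depth limits Cdkn2c most, with 42 to 78 counts in LPS control.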

Other observations

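The list of p53 and its targets other than Cdkn1a had 2 genes higher and 8 lower of 14 in LPS SRF-KO than in LPS control (median log2 fold change -0.40, or 6 higher and 6 lower with library totals), and 4 risen and 7 fallen with LPS in control cells (median -0.21, or 1 and 11 with library totals). Over all tested genes the shares with TMM were 39.1% higher and 37.9% lower, and 40.8% risen and 40.8% fallen. Btg2, a brake on proliferation, was at 35.5 ± 1.565 CPM in LPS SRF-KO, 68.2 ± 2.04 CPM in LPS control and 11.9 ± 1.35 CPM in untreated control (SD, n = 3). Sesn1 fell by 2.52 on the log2 scale with LPS in control cells, and Ccng1 was lower in LPS SRF-KO than in LPS control (log2 fold change -0.85). Trp53 itself had log2 fold changes of 0.10 (edgeR adjusted p = 0.071) and -0.32 in the same 2 comparisons and was named after its values were seen. With library totals these were 0.46 (edgeR adjusted p = 2.23e-10) and -0.87.

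Genes that turn over G1 regulators were higher in 6 and lower in 3 of 10 cases in LPS SRF-KO against LPS control (median 0.26, or 7 and 1 with library totals), and 3 rose and 4 fell with LPS in control cells (median -0.01, or 0 and 9 with library totals). As background to this and the next lists, 39.1% of all tested genes were higher and 37.9% lower with TMM, and 40.8% rose and 40.8% fell. Dtl, which helps to destroy p21, was at 10.2 ± 0.915 CPM in LPS SRF-KO, 1.68 ± 0.0913 CPM in LPS control and 28.8 ± 1.82 CPM in untreated control. Skp2, which targets p27, fell by 1.75 on the log2 scale with LPS in control cells, and Fbxo31 was higher in LPS SRF-KO than in LPS control (1.52). Among 12 regulators upstream of p27 and cyclin D, 5 were higher and 2 lower in LPS SRF-KO than in LPS control (median 0.12, or 10 and 1 with library totals), and 3 rose and 6 fell with LPS in control cells (median -0.10, or 2 and 10 with library totals). Map2k1, the kinase MEK1, was at 321 ± 6.38 CPM in LPS SRF-KO, 584 ± 9.895 CPM in LPS control and 124.5 ± 5.14 CPM in untreated control. Foxo3, a transcription factor of Cdkn1b, was higher in LPS SRF-KO than in LPS control (0.53). All 7 genes of the LPS response list rose with LPS in control cells. Il1b and Nos2 rose by 10.80 and 10.25, while Cxcl10 was lower and Ptgs2 higher in LPS SRF-KO than in LPS control (-2.75 and 2.02).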
